A study of Mus musculus with 6 samples.

Results

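The genes of the Notch pathway were examined for RUNX1 binding in mouse granulosa cells, the follicle's somatic cells around the oocyte. The members were 9 named genes out of 21883 protein-coding genes on the assembled chromosomes. They were the receptors Notch1, Notch2 and Notch3, the ligands Jag1 and Jag2, and the target genes Hes1, Hey1, Hey2 and Heyl. A RUNX1 peak was assigned to a member when its summit lay inside the gene body or within 50 kb of either end, a stretch called the window below. By this rule 94 of the 51515 peaks in the 4 lists were assigned.

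RUNX1 is a DNA-binding transcription factor, and its sites were mapped by ChIP-seq, the sequencing of DNA that is precipitated with an antibody to the factor. The mice were a CBA x C57BL/6 F1 cross, 21 days old. Per the labels they were given eCG (equine chorionic gonadotropin, 5 IU), a hormone that makes follicles grow, and 46 h later hCG (the human form, 5 IU), which acts as the ovulatory signal. The series holds 2 ChIP libraries of pre-ovulatory granulosa cells at 0 h after hCG, 2 libraries of peri-ovulatory granulosa cells at 6 h, and 1 pooled input for each time. All samples carry an identical treatment text, in which 6 h is the one collection time named, and the 0 h libraries were identified by title and time-point label. The labels do not say whether replicates came from separate animals, so p-values measure only the spread between these libraries, which may be technical. Peak lists do not measure expression, so the labelled cell type could not be checked against marker levels.

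Notch receptors are membrane proteins that are activated by ligands on a neighbouring cell. Proteolytic cuts by ADAM proteases and by the γ-secretase complex release the intracellular part of the receptor, which enters the nucleus and joins the DNA-binding protein RBPJ and a Mastermind-like coactivator. Genes of the Hes and Hey families, which encode basic helix-loop-helix repressors, are the classical targets. In the mouse ovary, Notch2 in granulosa cells and Jag1 in oocytes are known for their part in the formation of follicles.

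The lists differed greatly in length. They held 948 and 3135 peaks in replicates 1 and 2 at 0 h, and 18761 and 28671 peaks in replicates 1 and 2 at 6 h. The most frequent background recovered from the deposited values, after rounding, was 2.77 and 2.65 reads at 0 h and 2.76 and 2.13 at 6 h. The lists state no read totals, and the part of depth in their lengths was not tested.

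The windows of the 9 genes held 1 and 6 peaks in replicates 1 and 2 at 0 h, and 39 and 48 peaks in replicates 1 and 2 at 6 h. The 0 h mean was 3.5 ± 3.54 and the 6 h mean 43.5 ± 6.36 (SD, n = 2 libraries per time), and the groups did not overlap. On a log2 scale of the peak number plus 1, the mean was 3.56 higher at 6 h (exact permutation test over libraries, two-sided, p = 0.333, the smallest p that 2 libraries against 2 can give). As a share of each list, the same peaks made up 0.105% and 0.191% of the 0 h lists and 0.208% and 0.167% of the 6 h lists. The difference in the mean share was 0.0392 percentage points (exact permutation test, two-sided, p = 0.667), and the 2 groups overlapped. Without 0 h replicate 1, whose list was the shortest, the difference in share was -0.00374 percentage points. With each list cut to the 948 peaks of lowest p-value, the windows held 1 and 3 peaks at 0 h and 2 and 1 at 6 h, so the higher number at 6 h was not seen in lists of equal length. This cut gives all lists the same total and leaves few member peaks, so a rise in the number of peaks over the whole genome could not appear in it.

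**Figure D1:**
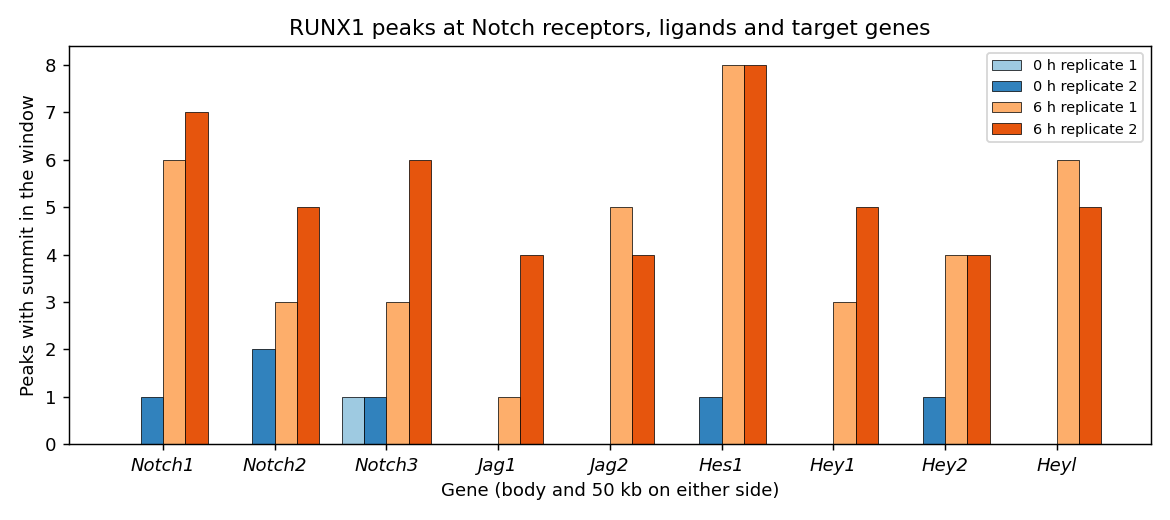
Number of RUNX1 peaks with a summit in the window of each gene (body and 50 kb on either side), as bars for the 4 libraries; a missing bar is 0 peaks. Every gene has more peaks in each 6 h list than in each 0 h list, from 1 and 4 at Jag1 to 8 and 8 at Hes1 at 6 h.

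All 9 genes had more peaks in each 6 h list than in each 0 h list, against 64.7% of all protein-coding genes. The same held for 40 of 43 other genes of the pathway. It also held for 12221 of the 17328 protein-coding genes with windows as long as those of the members. A peak was present in 1 of the 9 windows in 0 h replicate 1 and in 5 of 9 in 0 h replicate 2. The same shares over all protein-coding genes were 9.43% and 28.2%. At 6 h all 9 windows held a peak in each list, against 69.2% and 76.1% of all genes. Peaks of a time point that overlapped by 1 bp or more were merged, and a merged stretch with a peak from both replicates was called a replicated region. Such a region was present in 1 of 9 windows at 0 h, that of Notch3, and in 9 of 9 at 6 h, against 8.76% and 68.9% of all genes. Among the 17328 protein-coding genes whose windows were as long as those of the members (102440 to 236830 bp), 75.1% had a 6 h region.

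By role, each of the 3 receptors had a 0 h peak in its window, neither of the 2 ligands did, and 2 of the 4 target genes did. In all, 5 of 9 windows had a peak of either 0 h list, against 28.7% of all genes. All but 1 of these 7 peaks came from replicate 2, and without that library only Notch3 had a 0 h peak. The 7 peaks of the 0 h lists each overlapped a peak of both 6 h lists, as did 92.2% and 94.5% of all peaks in 0 h replicates 1 and 2. The 32 replicated 6 h regions in the windows included 5 that overlapped a 0 h peak, or 15.6% (exact Clopper-Pearson 95% CI 5.28 to 32.8, counting error only). Over all 17190 replicated 6 h regions this share was 16.5%, inside that interval. Counted by gene, 5 of 9 windows held such a region, against 27.8% of all genes. Without 0 h replicate 2 the share of the 6 h member regions was 3.12% (1 of 32), and that over all 6 h regions was not recomputed.

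**Figure D2:**
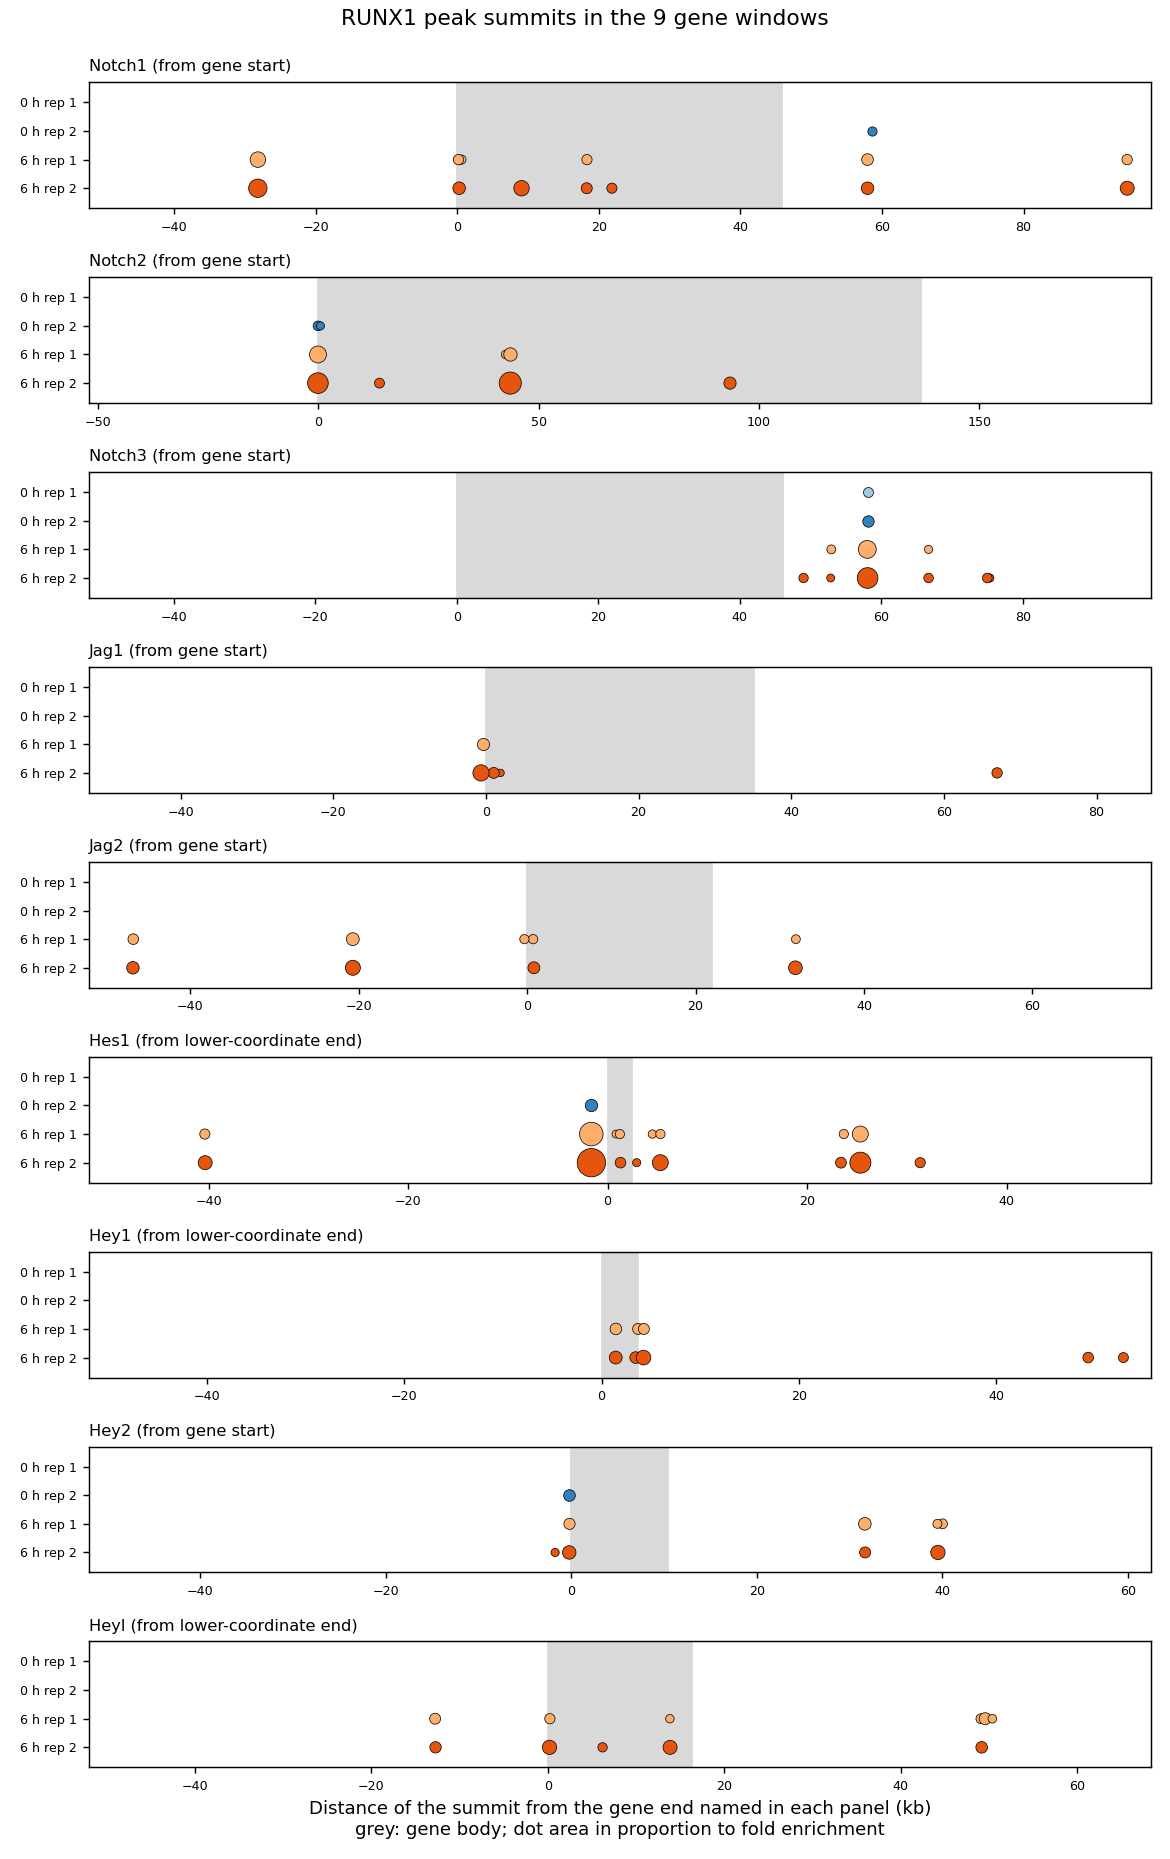
Position of each peak summit in the 9 windows, in kb from the gene start, or from the lower-coordinate end where the panel says so. Rows are the 4 libraries, grey is the gene body, and the dot area is in proportion to fold enrichment within a list. The 7 dots of the 0 h lists lie at 5 sites, 2 of them side by side at Notch2, and both 6 h lists have a dot near each site, at Notch1 701 and 695 bp away.

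Notch2 encodes the receptor best known in granulosa cells, and its start carried a RUNX1 peak at both times. The gene lies on chromosome 3 at 98013538 to 98150367 on the plus strand. No peak was called there in 0 h replicate 1. In 0 h replicate 2 there was a peak with its summit 47 bp upstream of the start and a second one 498 bp downstream of it, with fold enrichments (ChIP pileup over local background) of 7.17 and 5.13. At 6 h a wider peak covered both positions in each replicate, with the summit 53 and 62 bp upstream of the start and a fold of 22.1 and 32.6. Its pileup was 124 and 145 reads at 6 h, and the stronger 0 h peak had 27 reads. Inside the gene, 43573 bp from the start, the region spanning 98056523 to 98057423 reached 13.7-fold and 37.6-fold at 6 h, with no 0 h peak. The remaining region, 98055932 to 98056206, stood at percentile 11.9 and 12.9 of the 6 h lists, with a fold of 5.56 and 6.72.

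The promoters of Notch2, Hey2, Notch1 and Jag1 are printed because a RUNX1 peak overlapped each of them. Those of Notch2 and Hey2 were overlapped at both times, and those of Notch1 and Jag1 in the 6 h lists only. They are RefSeq sequences on GRCm38.p6 in the direction of transcription, from 250 bases before to 50 bases after the listed start. Capitals mark any match to the 4 motifs searched on both strands, which were the RUNX core TGTGGT, the RBPJ core TGGGAA, the AP-1 motif TGANTCA and the E-box CACGTG.
Notch2 promoter, chr3:98013288-98013587, plus strand: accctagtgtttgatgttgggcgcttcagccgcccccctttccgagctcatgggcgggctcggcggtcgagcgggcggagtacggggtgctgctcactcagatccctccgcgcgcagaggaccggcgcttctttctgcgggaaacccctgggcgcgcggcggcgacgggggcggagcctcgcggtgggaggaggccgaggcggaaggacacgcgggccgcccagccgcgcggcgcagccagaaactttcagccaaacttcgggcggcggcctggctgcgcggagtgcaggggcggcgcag
Hey2 promoter, chr10:30842734-30843033, minus strand: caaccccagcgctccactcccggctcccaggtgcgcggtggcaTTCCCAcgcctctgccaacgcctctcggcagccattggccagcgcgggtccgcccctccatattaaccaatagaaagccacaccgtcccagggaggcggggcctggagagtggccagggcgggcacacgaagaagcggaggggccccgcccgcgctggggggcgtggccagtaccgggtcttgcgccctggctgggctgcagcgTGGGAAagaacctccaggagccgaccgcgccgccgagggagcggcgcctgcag
Notch1 promoter, chr2:26503773-26504072, minus strand: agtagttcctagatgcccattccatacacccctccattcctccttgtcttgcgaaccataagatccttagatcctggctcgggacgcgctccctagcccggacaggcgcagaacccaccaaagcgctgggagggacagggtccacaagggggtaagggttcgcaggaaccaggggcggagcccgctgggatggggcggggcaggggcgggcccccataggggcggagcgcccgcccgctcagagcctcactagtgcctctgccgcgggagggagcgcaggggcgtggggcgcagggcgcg
Jag1 promoter, chr2:137116471-137116770, minus strand: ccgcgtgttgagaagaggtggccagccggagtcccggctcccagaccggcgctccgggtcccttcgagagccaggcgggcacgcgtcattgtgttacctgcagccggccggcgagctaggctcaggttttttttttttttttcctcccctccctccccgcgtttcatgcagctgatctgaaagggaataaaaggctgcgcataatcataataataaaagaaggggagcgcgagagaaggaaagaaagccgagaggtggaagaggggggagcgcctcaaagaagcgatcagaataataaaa
Among the 6 members with a listed promoter (Notch1, Notch2, Notch3, Jag1, Jag2 and Hey2), matches were found only in that of Hey2, which had 2 matches to the RBPJ core. Over all 32851 listed promoters, 16.8% held the RUNX core, 25.6% the RBPJ core, 7.81% the AP-1 motif and 7.15% the E-box. The match at position -207 of Hey2 reads TTCCCA, the reverse complement of the core. Its centre lay 2 bp from the summit of 6 h replicate 1, 30 bp from that of 6 h replicate 2 and 78 bp from that of 0 h replicate 2. The other match began at position -3. These matches describe the letters only. In the other 5 promoters the searched letters were not found, which says nothing of binding there. The promoters of Notch2, Hey2 and Notch1 held 73.0%, 72.0% and 68.3% G and C, that of Jag1 55.7%, and the median over all promoters was 52.7%.

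Notch1 had the most 6 h regions of the receptors. It lies on chromosome 2 at 26457902 to 26503822 on the minus strand, and its window held 0 and 1 peaks at 0 h and 6 and 7 at 6 h. These gave 5 replicated 6 h regions. The highest-ranking, at 26531684 to 26532255, had its summit up to 28156 bp upstream of the gene, in no annotated gene, with a fold of 18.5 and 25.8 and no 0 h peak. At the start itself a region at 26503350 to 26504532 overlapped the promoter, with its summit 180 and 276 bp inside the gene and a fold of 8.25 and 12.1. A peak 9088 bp inside the gene was called in 6 h replicate 2 only, with a fold of 18.3.

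The 0 h peak in the Notch1 window lay in another gene. Its summit was inside Sec16a, 12734 bp from Notch1, with a fold of 6.57 in replicate 2. The 6 h peak over it was wide, 1400 and 1425 bp, with a fold of 10.5 and 12.1. The 6 h summits were 701 and 695 bp away from the 0 h summit, so the intervals overlapped but the summits did not coincide. With summits within 100 bp in place of an overlap, 4 of 29 regions in the 9 windows matched a 0 h peak, or 13.8%, against 15.2% of all 14647 regions under this rule. A further 6 h region in this window, 48711 bp from Notch1, lay inside Inpp5e.

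Notch3 was the member whose 0 h site was found in both replicates. The gene lies on chromosome 17 at 32120820 to 32166896 on the minus strand, and all its peaks lay beyond its far end, none inside it or at its start. The 0 h region at 32108712 to 32108989 lay 11997 bp beyond that end, with Notch3 as the nearest protein-coding gene and Gm30729, 1308 bp away, as the nearest gene of any kind. Its fold was 7.69 and 9.99 in 0 h replicates 1 and 2, with 30 and 38 reads at the summit. At 6 h the fold there was 24.5 and 32.8, with 161 and 154 reads, and the summits lay within 55 bp of those at 0 h. The other 6 h regions in the window were weak, with a fold of 5.17 and 6.98 at 20626 bp and of 6.06 and 4.85 at 6867 bp from the gene. The promoter of Notch3 carried no peak in any list.

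Of the ligands, Jag1 had the fewest regions of all members. It lies on chromosome 2 at 137081451 to 137116520 on the minus strand, with 0 peaks in each 0 h list and 1 and 4 peaks at 6 h. Its only replicated region, at 137116548 to 137117704, overlapped the promoter printed above, with summits 434 and 641 bp upstream of the start. The fold there was 11.4 and 20.2, with 43 and 72 reads at the summit. The summits of the replicates differed by 207 bp, so this region was not matched when summits within 100 bp were required. The other peaks of 6 h replicate 2 were 1028 and 1916 bp inside the gene and 31906 bp beyond its far end, with a fold of 9.22, 4.26 and 8.30.

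Jag2 lies on chromosome 12 at 112907803 to 112929812 on the minus strand, with 0 peaks in each 0 h list and 5 and 4 peaks at 6 h. The region nearest its start, at 112928870 to 112929243, lay 406 and 493 bp downstream of the listed start and had a fold of 6.64 and 10.9. A peak upstream of the start, 633 bp away, was called in 6 h replicate 1 only, with a fold of 6.52. Farther off, a region 20678 bp upstream of the gene had the highest fold in this window, 12.7 and 17.3, and lay inside Gm26583. Another, 9850 bp beyond the far end, had a fold of 6.04 and 14.4, and the last lay inside Brf1 and Btbd6.

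Hes1, which encodes a repressor and is the best-known Notch target, had the strongest single region and the largest number of regions among the members. The gene lies on chromosome 16 at 30065357 to 30067796, and its window held 0 and 1 peaks at 0 h and 8 and 8 at 6 h. The strongest site lay 1624 bp outside the lower-coordinate end of the gene. It had a fold of 11.8 and 42 reads at the summit in 0 h replicate 2, where it ranked 281 of 3135 peaks, and no peak in 0 h replicate 1. At 6 h its fold was 42.5 and 61.7, with 170 and 204 reads, and it ranked 66 of 18761 and 99 of 28671 peaks. The 6 h region reached from 30062963 to 30065514, a width of 2552 bp, and crossed the gene end. The 0 h summit lay 31 and 41 bp from the 6 h summits.

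The other 5 regions of the Hes1 window had no 0 h peak. The strongest of them lay at 30090264 to 30090937, 22907 bp beyond the upper-coordinate end and in no gene, with a fold of 19.7 and 34.0. A region inside the gene had a fold of 6.53 and 8.66, and one 2849 bp beyond the end had 6.70 and 19.5, a gap between replicates of percentile 25.9 against 83.8 of their lists. Regions at 20964 bp on one side and 40352 bp on the other had a fold of 6.58 and 9.02, and of 7.97 and 15.0. As many regions as at Hes1, 6 or more, were found in 8.68% of the windows of all protein-coding genes.

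Hey2, a repressor of the same family group, had a RUNX1 peak over its start at both times. The gene lies on chromosome 10 at 30832359 to 30842783 on the minus strand. There was no peak in 0 h replicate 1. In 0 h replicate 2 the summit lay 283 bp upstream of the start, with a fold of 10.4 and 37 reads over a background of 2.65. At 6 h the summits lay 206 and 234 bp upstream, with 101 and 117 reads over a local background of 9.64 and 7.45, and a fold of 9.58 and 14.0. The pileup was thus higher in each 6 h list than at 0 h while the 0 h fold lay between those of the 6 h lists, beside a higher local background at 6 h. The same site stood at percentile 85.4 of fold in its 0 h list and at 59.4 and 68.0 in the 6 h lists. The other regions of this window, at 29086 and 21206 bp from the far end, lay inside Ncoa7 and, by its summits, in or 19 bp from a tRNA gene, n-TEctc9.

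Hey1 and Heyl had no 0 h peak in either list. Hey1 lies on chromosome 3 at 8663359 to 8667038, and its 3 regions at 6 h all lay within 1447 bp of a gene end. The region at 8667465 to 8667882, 571 bp outside the upper-coordinate end, had a fold of 9.25 and 16.5. The region at that end, at 8666645 to 8667259, had 9.37 and 10.3, and the region inside the gene had 10.3 and 12.7. At 571 bp the summits lay inside a neighbouring gene, LOC115489673, in both replicates. At the gene end the summit lay in that gene in replicate 1 and 229 bp inside Hey1 in replicate 2. Heyl lies on chromosome 4 at 123233556 to 123249870, with a region 199 bp inside its lower-coordinate end that had a fold of 8.08 and 15.6. A second region inside Heyl had 5.50 and 15.0, and regions at 12767 and 33260 bp lay inside Nt5c1a and Pabpc4.

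**Figure D3:**
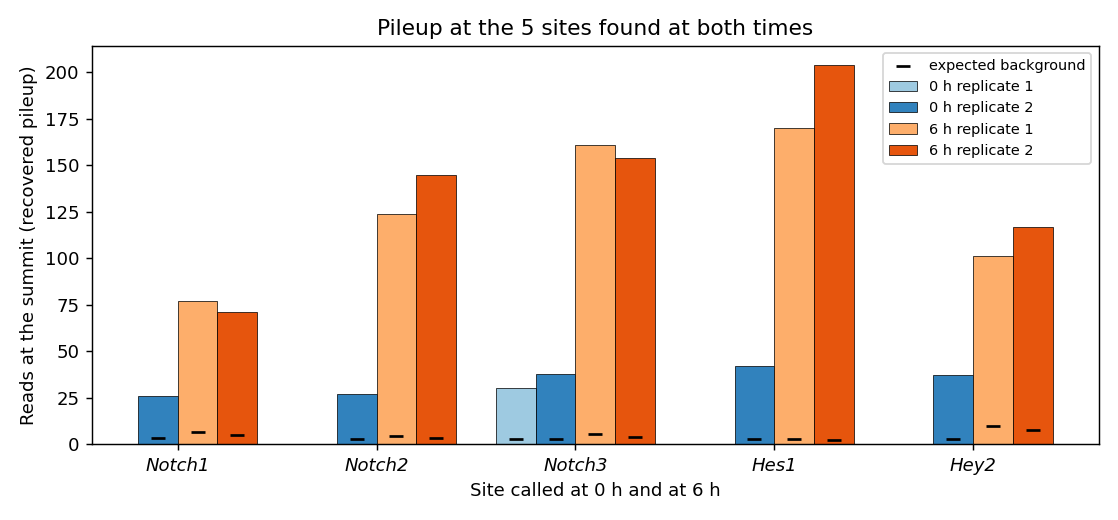
Reads at the summit, recovered from the deposited fold and p-value, at the 5 sites called at 0 h and 6 h, for the 4 libraries; the black dash is the expected background and a missing bar means that no peak was called. At 0 h the bars reach 26 to 42 reads and at 6 h 71 to 204 reads, and 0 h replicate 1 has a bar at Notch3 only.

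At the 5 sites found at both times, the pileup of the stronger peak in each list was between 26 and 42 reads in the 0 h lists and between 71 and 204 reads in the 6 h lists. These are values of separate lists with their own depth and are set side by side without a test. A list records only called peaks, so the absence of a bar for 0 h replicate 1 does not give the read number there.

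The sites were then ranked in the 6 h lists. The percentile of fold, averaged over both 6 h replicates, had a median of 94.9 (range 62.5 to 99.7) for the 5 sites and 54.8 (range 9.85 to 94.2) for the other 27 regions. The median width of the 5 sites was 1241 bp, against 615 bp for the 27. Over the whole series, the 2835 regions that overlapped a 0 h peak had a median percentile of 84.2 and a width of 953 bp, and the 14355 others had 54.4 and 565 bp. The lowest of the 5 were Hey2 at 63.7 and Notch1 at 62.5. Over all 32 regions the median was 57.2, against 59.1 for all replicated 6 h regions, and 2 of the 32 stood above percentile 95, Hes1 and Notch3, where 5.9% of all regions did.

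**Figure D4:**
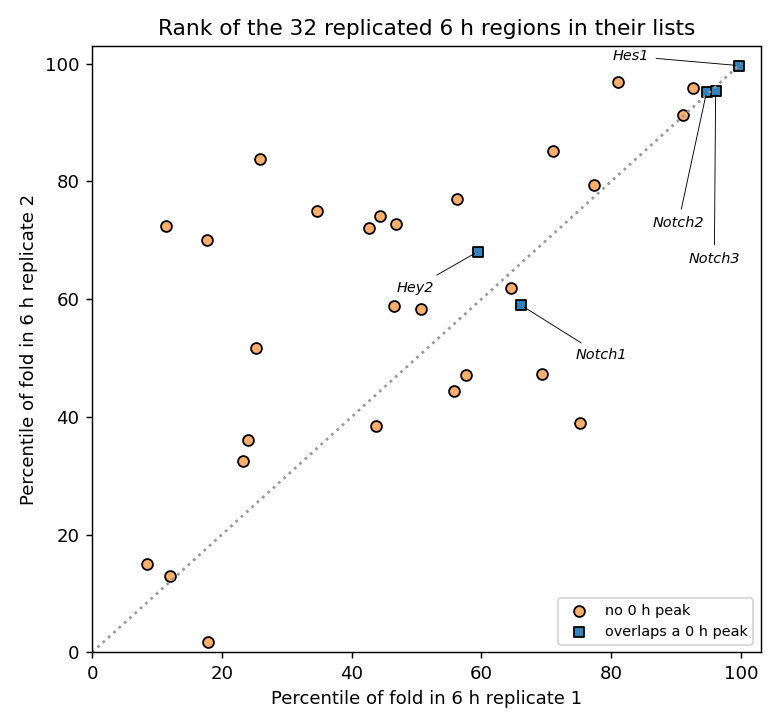
Percentile of fold in 6 h replicate 1 (horizontal) and 6 h replicate 2 (vertical) of the 32 replicated 6 h regions in the windows. Squares overlap a 0 h peak and are named, circles do not. Hes1, Notch2 and Notch3 lie at the upper right, above percentile 94 in each list, and Hey2 and Notch1 between 58.9 and 68.0.

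The replicates at 6 h ranked several regions differently. Fold was higher in replicate 2 in 29 of the 32 regions, with a median ratio of 1.42, and the same held for 92.3% of all 6 h regions, with a median ratio of 1.52. Of the 39 and 48 member peaks in the 6 h lists, 35 and 32 belonged to a replicated region, against 96.3% and 60.8% of all peaks in these lists. The summits of a region lay a median of 33.5 bp apart in the replicates (range 1 to 498).

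Each region was placed by its summit in the replicate where its percentile was higher. Of the 32 regions, 9 had this summit inside the member, 12 inside another gene and 11 in no annotated gene, and 22 had the member as their nearest protein-coding gene. Shares over all 6 h regions were not computed for these positions, nor over all peaks for closeness to a gene end. A replicated 6 h region within 1 kb of a gene end was found, by its summit, for 7 of the 9 members, all but Notch3 and Hes1, against 37.7% of all protein-coding genes. A 0 h peak this close was found for 2 of 9, Notch2 and Hey2, against 8.12%. Of the member peaks, 0 of 1 and 3 of 6 lay within 1 kb of an end in the 0 h lists, and 11 of 39 and 9 of 48 in the 6 h lists. The mean share was 25.0% ± 35.4 in the 0 h lists and 23.5% ± 6.69 in the 6 h lists (SD, n = 2 libraries per time), a difference of -1.52 percentage points (exact permutation test, two-sided, p = 1). The direction depended on single libraries: leaving out 0 h replicate 1 gave -26.5, leaving out 0 h replicate 2 gave 23.5, and leaving out 6 h replicate 2 gave 3.21.

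**Figure D5:**
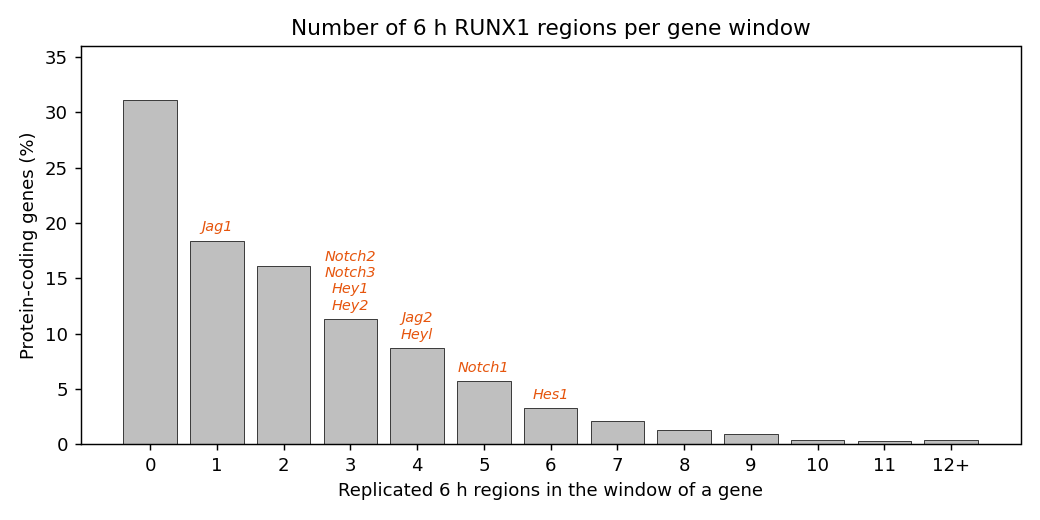
Share of the 21883 protein-coding genes (vertical, %) by the number of replicated 6 h regions in the window (horizontal; 12+ holds 12 or more), with the members named above the bar they belong to. The members lie between 1 (Jag1) and 6 (Hes1) regions, with a median of 3, and the median over all genes is 2.

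The number of 6 h regions per window ran from 1 at Jag1 to 6 at Hes1. It was 3 at Notch2, Notch3, Hey1 and Hey2, 4 at Jag2 and Heyl and 5 at Notch1. The median was 3, against 2 over all protein-coding genes and also 2 over the genes with windows as long as those of the members. Heyl shows how the edge of the window counts. A pair of peaks just outside it, at 50.2 kb, had a fold of 6.52 and 9.90, and the outermost peaks inside any window, at 49.2 kb from Hey1 and 48.7 kb from Notch1, had 7.66, and 8.30 and 15.2.

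The other 43 genes of the pathway were counted by the same rule. All 43 had a replicated 6 h region in the window, with a median of 3 and a range of 1 to 11, against 68.9% of all genes. A peak of either 0 h list was present for 25 of 43, or 58.1%, against 28.7%. A replicated 0 h region was present for 4 of 43, or 9.30%, against 8.76%. These 4 were Hes7, Maml1, Kdm5a and Mfng, and no gene of the list was without a peak. Hes7 encodes a repressor, and the region in its window lay 21828 bp away with a fold of 13.2 and 18.5 at 0 h and of 37.5 and 49.8 at 6 h. Maml1 encodes a Mastermind-like coactivator, and its 0 h region, 36965 bp away, had 10.3 and 7.17 and then 14.0 and 25.8 at 6 h. Kdm5a encodes a histone demethylase and had its region 245 bp inside a gene end, with 6.44 and 11.5 at 0 h and 25.2 and 27.1 at 6 h. Mfng encodes a glycosyltransferase that modifies the receptors. Its 0 h region, 35032 bp away with a fold of 9.28 and 8.50, overlapped no replicated 6 h region. The genes nearest to the sites of Hes7, Maml1 and Mfng were not determined, so these sites may lie at other genes.

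By role, a 0 h peak was present for 1 of 5 further ligands, 3 of 4 genes of the nuclear complex, 3 of 4 corepressors, 4 of 8 proteases, 4 of 5 glycosyltransferases, 5 of 11 genes of endocytosis and turnover and 4 of 5 further targets. For Notch4 it was also present. Over all genes the share was 28.7%, and over those with windows as long as the members' 31.6%. Windows differed between the roles, with a median of 357320 bp for the nuclear complex against 117170 bp over all genes. A 6 h region within 1 kb of a gene end was present for 22 of the 43, or 51.2%, against 37.7% of all genes and 42.1% of those with windows as long as the members'. The genes whose peak numbers in the 4 lists were most like the mean of the members, by Euclidean distance of log2 of the number plus 1 over the 4 libraries, were Notch4, Dll4 and Psen2. Their distances were 0.433, 0.490 and 0.498. Notch4, a receptor, had 0 and 1 peaks at 0 h and 4 and 6 at 6 h. Dll4, a ligand, had 0 and 1, and 5 and 5. Psen2, a γ-secretase subunit, had 0 and 1, and 3 and 5.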

How the data were processed

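RUNX1 ChIP-seq lists of 4 libraries were used, and the 2 inputs entered only through the authors' peak calls. Reads were aligned with Bowtie2 2.2.5 to mm10 and peaks called with MACS2, per the submitters' processing notes; settings and filters are not given in the sources used here. The deposited lists give, per peak, the fold enrichment over background as a ratio and the −log10 of the p-value and q-value. No deposited list held a −log10 p under 9.01. The deposited score is 10 times the −log10 p and was not used. Groups were taken from the titles. Reads were 75 nt, per the labels.

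Genes and promoters were those of NCBI RefSeq on GRCm38.p6, the same assembly as mm10, and coordinates count from 1. All 9 members and 43 other pathway genes matched by symbol. Strand came from the promoter table. Exons and introns were not separated. The pileup and background of each peak were recovered from fold (with a pseudocount of 1) and Poisson p-value as the whole-number pileup with a misfit of at most 0.005, found for 100% of peaks and tested on simulated data. The deposited lists state no read totals. A library is the replicate, and exact permutation tests ran over libraries. A list of peaks allows no model across genes, so members are described beside all protein-coding genes. All members were named, and of the other pathway genes those with a replicated 0 h region, those without a peak and the 3 most alike. The members and lists were chosen with earlier results of these data known. Alternatives were other windows, a −log10 q of at least 20, lists of equal length, other overlap rules, left-out libraries and a replicate block. Python 3.11.15, numpy 2.4.6, pandas 2.3.3 and scipy 1.17.1 were used.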

Additional observations from a re-analysis of the deposited data

How the results depend on the processing

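Of 58 values recomputed under alternatives, 42 stayed within the limits set for them: the same sign for a difference, whatever its size, a factor of 1.5 for a count and the 95% interval for the share of regions. Some of the 42 could not change. The replicate block leaves each difference as it was. With a 6 h library left out, a member with a replicated region still has a peak in the other list. The assignment of a peak by its nearest protein-coding gene was chosen after seeing the data, and the other alternatives were planned. With lists of equal length, the difference in log2 peak number was -0.208 and that in share -0.0527 percentage points, 1 member (Hes1) had a replicated 6 h region, and 100% of the 6 h member regions (1 of 1) overlapped a 0 h peak. By nearest gene, the difference in share was -0.00216 percentage points. The number of members with a replicated 0 h region was 0 with a 10 kb window, 0 in the gene body alone and 0 when peaks under 20 in −log10 q were dropped. Shares over all protein-coding genes were not computed for the other windows, q limit, overlap rules, list length or nearest-gene rule. The member counts there cannot be told from a change over all genes. With 1 of the 0 h libraries left out no region can be replicated, and the count is then of members with a peak in the remaining list. It was 1 without replicate 2 (Notch3) and 5 without replicate 1, against 9.43% and 28.2% of all protein-coding genes. Except for summits within 100 bp, the share over all 6 h regions was not recomputed under the alternatives. For gene bodies, a region was counted when any of its summits lay inside. The share of 6 h member regions with a 0 h peak was 0% (0 of 10) in gene bodies and 3.57% with a reciprocal overlap of 50%. Leaving out each library gave 3.12% to 15.6% for it, 2.66 to 4.47 for the difference in log2 peak number, -0.00374 to 0.0822 for that in share, 9 members with a region or peak at 6 h, and -26.5 to 23.5 for the difference in peaks near gene ends, which was 7.21 with a distance of 5 kb. The replicate block, which pairs libraries that share only a number, gave the same differences of 3.56, 0.0392 and -1.52, with p of 0.5, 1 and 1 (exact sign-flip test, for which 0.5 is the smallest p). For the values that changed, the cause was not tested. Members with a replicated 6 h region numbered 6 in gene bodies alone, where Notch3, Jag1 and Hey2 had none, and 8 with summits within 100 bp, where Jag1 had none. The stricter q left no peak of 0 h replicate 1 in the windows. The shortest list limits what 0 h can show: absence from it is not absence of binding.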
